A study of Mus musculus with 47 samples.

Results

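The genes described here are 9 surface and signalling genes of B cells and of lymphocyte homing: Cd79a, Cd79b, Cd22, Cr2, Ms4a1, Cd37, Blk, Cxcr5 and Ccr7. They were chosen by name out of 16366 annotated genes, with earlier results of these data known. Every probe set annotated to them on any of the 6 array tables was taken, whatever its level. That gave 14 probe set IDs of 49372, which make 26 entries on the A and B arrays of both array versions, and none on the C arrays. Values are array intensities of whole mouse lung on Affymetrix murine U74 arrays, whose small number sets the precision.

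Ragweed mice received ragweed protein and alum, an aluminium adjuvant, on days 0 and 3, and the protein again through the trachea on days 10 and 17. The PBS mice received PBS at the same steps, and the labels name alum for ragweed only, so ragweed and alum cannot be told apart. Lungs were taken 24 h or 72 h later. The 4 groups, ragweed 24 h, PBS 24 h, ragweed 72 h and PBS 72 h, hold 2 samples each, coded 1a and 1b. The labels give no strain, sex or age, and do not tie 1a and 1b to separate animals. The p-values therefore reflect only how far libraries spread within groups, pooled over all groups of a table and moderated across probe sets. That spread can be technical.

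All 4 groups are on the first-version A, version 2 B and version 2 C tables, called the main tables here. Version 2 A, a second A array of the same samples without ragweed 24 h arrays, is given beside them. On first-version A the ragweed arrays had been deposited at a trimmed mean intensity of 800, and the PBS arrays at 225 to 377 before they were scaled here, so deposited scale and treatment cannot be told apart on that table. Intensities below a floor, 292 on first-version A, 238 on version 2 A and 356 on version 2 B, were raised to it before testing. A probe set was called at a Benjamini-Hochberg adjusted p under 0.05 in limma. Errors of log2 differences are standard errors from that pooled, moderated spread, with 2 samples per group. The tissue label fitted the arrays: the summed intensity of 7 lung epithelium markers, among them Sftpc and Scgb1a1, ran from 195719 to 242371 across the 8 samples.

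A resting B cell carries an antigen receptor made of membrane immunoglobulin and the signalling chains Cd79a and Cd79b. Cd22 dampens the signal of that receptor, while Cr2, the receptor for complement fragments, strengthens it. Cxcr5 guides B cells into follicles, where its ligand Cxcl13 is made, and Ccr7 guides lymphocytes and dendritic cells along Ccl19 and Ccl21. In lung, allergen challenge is known to draw in lymphocytes, and B cells that become plasma cells lose most of these surface proteins. Bulk tissue gives the RNA of all cells together, so fewer cells of a type and less RNA per cell cannot be told apart.

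Promoters were at hand for 4 of the 9 genes (RefSeq, GRCm38.p6): Cd22, Cd79a, Cd37 and Cr2. Those of Cd22, Cd37 and Cd79a are shown because the calls and the opposite directions described below fell on these genes. Each run is the 250 bases before the annotated start, 5′ to 3′ on the gene's strand. Capitals mark matches, on either strand, to the motif letters CCCNNGGG (core of EBF sites), CAGGTG (an E-box bound by E2A), GAGGAA (core of PU.1 sites) or ATTTGCAT (the octamer).

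Cd22, chr7:30879029-30879278, minus strand: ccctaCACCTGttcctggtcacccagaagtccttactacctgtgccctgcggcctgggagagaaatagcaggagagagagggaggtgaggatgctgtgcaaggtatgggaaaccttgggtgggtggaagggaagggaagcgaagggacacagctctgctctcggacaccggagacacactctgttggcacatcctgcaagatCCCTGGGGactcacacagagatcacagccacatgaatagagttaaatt
Cd37, chr7:45238840-45239089, minus strand: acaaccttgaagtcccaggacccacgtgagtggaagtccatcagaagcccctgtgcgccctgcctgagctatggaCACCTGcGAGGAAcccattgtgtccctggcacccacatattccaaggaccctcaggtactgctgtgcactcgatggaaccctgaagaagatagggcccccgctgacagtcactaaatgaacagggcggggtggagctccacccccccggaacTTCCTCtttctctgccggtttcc
Cd79a, chr7:24897247-24897496, plus strand: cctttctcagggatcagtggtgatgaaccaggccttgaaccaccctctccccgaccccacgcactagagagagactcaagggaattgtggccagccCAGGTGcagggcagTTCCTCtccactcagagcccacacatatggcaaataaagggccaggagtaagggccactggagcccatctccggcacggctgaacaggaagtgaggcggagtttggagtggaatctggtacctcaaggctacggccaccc

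The E-box letters were found in all 4 of these promoters, and in 17.2% of all 32851 promoters of that length. GAGGAA was found in Cd79a once and in Cd37 at 2 places, and in 23.3% of all promoters. CCCNNGGG was found in Cd22, 48 to 41 bases before the start, and in 11.8% of all promoters. The octamer letters, found in 1.6% of all promoters, were in none of the 4. None of the matches overlapped each other. A match is a description of letters, not evidence of binding.

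Of the 14 probe set IDs, 8 were bright enough to be tested on the main tables, above the floor on at least 2 arrays, and they cover Cd22, Cd79a, Ms4a1, Cd37, Blk and Cr2. Ragweed lungs of 72 h had more Cd22 signal than PBS lungs of 72 h, 2.60-fold on floored values with 1 of 2 PBS samples at the floor, and Cd37 was 2.39-fold higher in ragweed over the mean of both times. Each of these calls was lost when any 1 of the 8 samples was left out. Version 2 A gave a 1.29-fold difference for Cd22 at 72 h that was not called (limma adjusted p = 0.427). For Cd37 the 72 h difference there was 0.99-fold, with overlapping groups (adjusted p = 0.988). Cd79a was 1.45-fold higher in ragweed at 72 h there, and was not called (adjusted p = 0.223). No member was called at 24 h. Ms4a1 and Cd79a did not pass the test at either time, and on first-version A Cd79a lay in the opposite direction to Cd22 and Cd37 at 72 h. The intensity plot by group on first-version A shows these values.

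**Figure D1:**
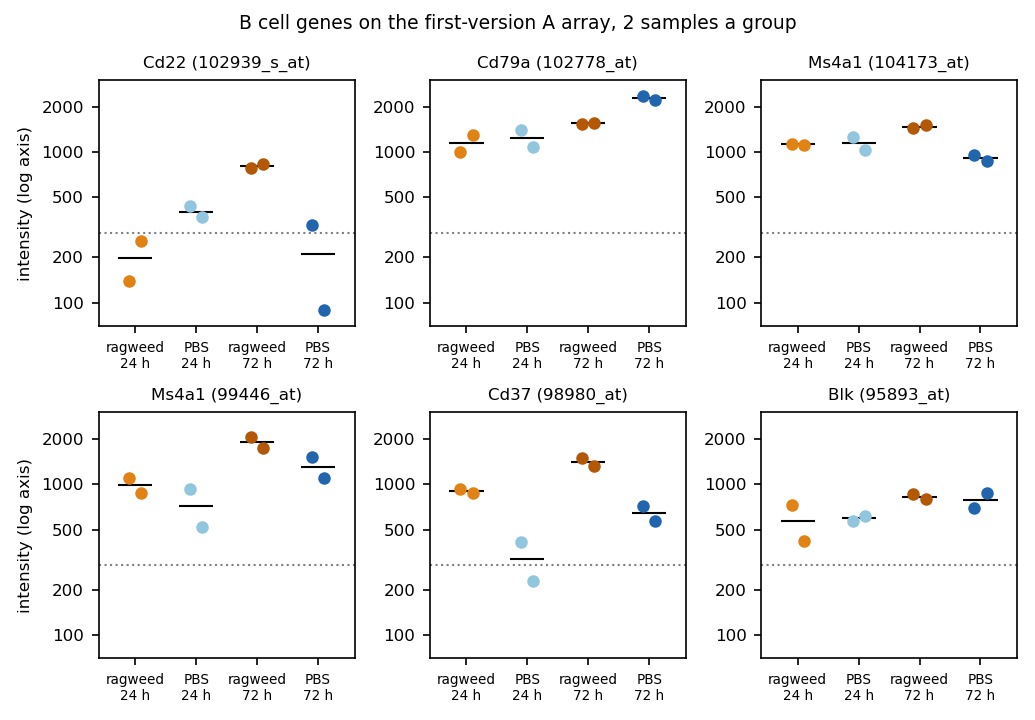
Normalized intensity (log axis) of 6 probe sets on the first-version A array, by group; points are the 2 samples of a group, black bars their mean, and the dotted line the floor of 292. Cd22 and Cd37 reached their highest values in ragweed 72 h, whereas Cd79a was highest in PBS 72 h, at 2340 and 2203.

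Cd79a (102778_at), the signalling chain Ig-alpha, had intensities of 1000 and 1301 in ragweed 24 h, against 1397 and 1076 in PBS 24 h. At 72 h it had 1534 and 1554 in ragweed, against 2340 and 2203 in PBS. Its groups overlapped at 24 h, and at 72 h both ragweed samples lay below both PBS samples. The log2 differences were -0.10 ± 0.19 at 24 h (limma adjusted p = 0.928) and -0.56 ± 0.19 at 72 h (adjusted p = 0.368), and neither passed the test.

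From high to low, the Cd79a group means on first-version A ran PBS 72 h, ragweed 72 h, PBS 24 h and ragweed 24 h. No neighbours in that order differed by the test, the adjusted p-values being 0.368, 0.581 and 0.928. PBS 72 h and PBS 24 h differed by 0.89 ± 0.19 (adjusted p = 0.186).

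The 72 h groups of Cd79a had the other order on the version 2 A array. Its intensities there were 2085 and 1531 in ragweed 72 h, against 1158 and 1319 in PBS 72 h and 644 and 725 in PBS 24 h. Both ragweed samples lay above all PBS samples. The log2 difference at 72 h was 0.53 ± 0.20 (limma adjusted p = 0.223), where first-version A gave -0.56 for the same groups. Whether these versions differ for Cd79a was not tested, since both arrays measured the same samples.

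Cd79b, the partner chain Ig-beta, had no probe set shared by both A arrays. On version 2 A (161012_at) it had 2237 and 1987 in ragweed 72 h, against 1288 and 1573 in PBS 72 h and 1122 and 947 in PBS 24 h. The ragweed samples lay above every PBS sample, and the log2 difference at 72 h was 0.57 ± 0.17 (limma adjusted p = 0.153). On first-version A another probe set of Cd79b (104472_at), scaled and not tested, had 607 and 487 in ragweed 24 h, against 513 and 330 in PBS 24 h. At 72 h the same probe set had 432 and 260 in ragweed, against 242 and 511 in PBS. Its groups overlapped at both times.

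Cd22 (102939_s_at), the inhibitory co-receptor, had intensities of 783 and 826 in ragweed 72 h, against 329 and 90 in PBS 72 h. At 24 h it had 140 and 255 in ragweed, against 435 and 368 in PBS. The groups did not overlap at either time: ragweed was above PBS at 72 h and below it at 24 h. At 72 h the log2 difference was 1.38 ± 0.20 (limma adjusted p = 0.0289). This was the only member called of the 8 tested at 72 h, where 0.527% of all 25250 probe sets tested were called and 0.333% were called higher.

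The 24 h difference of Cd22 was at least 0.46 ± 0.20 log2 units lower in ragweed, since both ragweed samples were at the floor, and it did not pass the test (adjusted p = 0.574). The ragweed effect at 72 h minus that at 24 h was 1.83 ± 0.28 as fitted (adjusted p = 0.14), which was not called. In that comparison limma called 0 of 8 members, with 0.0356% of all probe sets called, and 2 of 8 had an unadjusted p under 0.05 (7.35% over all). Within ragweed lungs, Cd22 was at least 1.46 ± 0.20 log2 units higher at 72 h than at 24 h (adjusted p = 0.0339, 0.305% of all probe sets called), at least 2.76-fold. Flooring removed the spread between the ragweed 24 h samples, on which this error and p-value partly rest. With no floor the difference was 1.83 (limma adjusted p = 0.213).

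The Cd22 calls were lost under several alternatives. Of the PBS 72 h samples, the one at 90 was raised to the floor of 292 and the other was at 329, so flooring narrowed their spread. With no floor the difference was 1.89 and the adjusted p 0.181. Leaving out each of the 8 samples in turn gave 1.30 to 1.47 and adjusted p-values from 0.0517 to 0.194, and the call was lost each time. The call at 72 h against 24 h within ragweed was also lost each time, with adjusted p-values from 0.0597 to 0.162.

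All Cd22 values were above the floor on version 2 A. They were 597 and 686 in ragweed 72 h, against 464 and 527 in PBS 72 h and 343 and 386 in PBS 24 h. Both ragweed samples exceeded all PBS samples, and the log2 difference at 72 h was 0.37 ± 0.22 (limma adjusted p = 0.427). Cd22 therefore had the same direction on both arrays, called on first-version A and not on version 2 A.

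Cr2 (102289_r_at), the complement receptor, stayed below the floor in every sample of both A arrays. Its intensities on first-version A were between 10 and 110 over the 8 samples, and on version 2 A between 25 and 113 over 6. A second Cr2 probe set (114856_at) on version 2 B had 499 and 214 in ragweed 24 h, against 211 and 112 in PBS 24 h. Its 72 h values were 212 and 249 in ragweed, against 98 and 460 in PBS. Only 2 of these 8 values were above the floor of 356, and the log2 differences were 0.24 ± 0.21 at 24 h (limma adjusted p = 0.808) and -0.18 ± 0.21 at 72 h (adjusted p = 0.841). On first-version B the same probe set was above the floor on 1 of 8 arrays. Cr2 was thus below the floor on most arrays. The floor is a percentile of each table's intensities and not a measured background.

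Ms4a1 encodes CD20, a membrane protein of mature B cells that plasma cells lack, and 3 probe sets measured it. Probe set 104173_at had 1129 and 1118 in ragweed 24 h, against 1265 and 1035 in PBS 24 h. The 72 h values were 1440 and 1504 in ragweed, against 948 and 870 in PBS. The groups overlapped at 24 h and were apart at 72 h, with a log2 difference of 0.70 ± 0.18 (limma adjusted p = 0.207).

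The second Ms4a1 probe set, 99446_at, had 1091 and 870 in ragweed 24 h, against 924 and 519 in PBS 24 h. In the 72 h groups it had 2056 and 1735 in ragweed, against 1504 and 1096 in PBS. Here too ragweed lay above PBS at 72 h, by 0.56 ± 0.30 (limma adjusted p = 0.64), and the 24 h groups overlapped. Between the PBS groups these probe sets disagreed: PBS 72 h minus PBS 24 h was -0.33 ± 0.18 for 104173_at and 0.89 ± 0.30 for 99446_at, with adjusted p-values of 0.705 and 0.457.

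Both of these Ms4a1 probe sets had, on version 2 A, ragweed 72 h above PBS 72 h and PBS 72 h above PBS 24 h in mean. Probe set 104173_at had 1853 and 1882 in ragweed 72 h, against 1392 and 1776 in PBS 72 h and 1222 and 906 in PBS 24 h. Probe set 99446_at had 1424 and 1495 in ragweed 72 h, against 1065 and 1276 in PBS 72 h and 879 and 595 in PBS 24 h. The 72 h differences were 0.25 ± 0.19 (limma adjusted p = 0.54) and 0.32 ± 0.22 (adjusted p = 0.49). The third Ms4a1 probe set, 105471_at on the B arrays, was above the floor on 4 of 8 arrays of each version. Its 72 h values on version 2 B, 704 and 70 in ragweed against 518 and 469 in PBS, spread too widely to separate the groups.

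Cd37 (98980_at), a tetraspanin of mature B cells that is also found on other leukocytes, had 929 and 869 in ragweed 24 h, against 413 and 227 in PBS 24 h. At 72 h it had 1484 and 1318 in ragweed, against 712 and 566 in PBS. Ragweed lay above PBS without overlap at both times. The log2 differences were 1.37 ± 0.27 at 24 h (limma adjusted p = 0.141) and 1.14 ± 0.27 at 72 h (adjusted p = 0.173), and neither was called alone.

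Over both times together the ragweed effect on Cd37 was 1.26 ± 0.19 (limma adjusted p = 0.0343, higher in 4 of 4 ragweed samples against the PBS samples of the same time), and it was called. In that comparison 0.65% of all probe sets were called, and Cd37 was the only member of the 8. Leaving out any 1 of the 8 samples gave 1.13 to 1.38 and adjusted p-values from 0.0571 to 0.149, so the call was lost each time. The effect at 72 h minus that at 24 h was -0.23 ± 0.38 (adjusted p = 0.926).

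The order of Cd37 means on first-version A was ragweed 72 h, ragweed 24 h, PBS 72 h and PBS 24 h. No neighbours in that order were told apart by the test, with adjusted p-values of 0.457, 0.565 and 0.394. Ragweed 72 h and PBS 24 h, at the ends, differed by 2.01 ± 0.27 (adjusted p = 0.0142, 0.935% of all probe sets called).

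Cd37 had on version 2 A 1019 and 999 in ragweed 72 h, against 957 and 1077 in PBS 72 h and 537 and 542 in PBS 24 h. The 72 h groups overlapped, with a log2 difference of -0.01 ± 0.18 (limma adjusted p = 0.988). The first-version A value for the same comparison was 1.14, and the difference between the arrays was not tested. PBS 72 h minus PBS 24 h was close on both arrays, 0.87 ± 0.27 and 0.91 ± 0.18, and not called on either (adjusted p = 0.394 and 0.0825).

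Blk, a Src-family kinase that acts just below the receptor, was measured by 2 probe sets. Probe set 95893_at had 725 and 417 in ragweed 24 h, against 574 and 617 in PBS 24 h. The 72 h groups had 858 and 795 in ragweed, against 699 and 871 in PBS. The groups overlapped at both times, and the log2 differences were -0.11 ± 0.31 and 0.08 ± 0.31 (limma adjusted p = 0.968 and 0.982).

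The same Blk probe set had on version 2 A 698 and 907 in ragweed 72 h, against 433 and 568 in PBS 72 h and 430 and 323 in PBS 24 h. Ragweed was above PBS in both samples, by 0.68 ± 0.27 (limma adjusted p = 0.25). The second Blk probe set, 92359_at, was below the floor on all 8 first-version A arrays, with intensities of 78 to 235. It was above the floor on 2 of 6 version 2 A arrays.

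The homing receptors had signals mostly near or below the floor. Cxcr5 (99841_at) had 199 and 101 in ragweed 24 h, against 275 and 170 in PBS 24 h on first-version A. At 72 h it had 434 and 217 in ragweed, against 70 and 254 in PBS. A single value of the 8 was above the floor of 292, so Cxcr5 was not tested there. Version 2 A gave Cxcr5 298 and 278 in ragweed 72 h, against 201 and 263 in PBS 72 h and 64 and 92 in PBS 24 h, and the 72 h difference was 0.20 ± 0.15 (limma adjusted p = 0.52).

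Ccr7 (104443_at) had 270 and 240 in ragweed 24 h, against 286 and 137 in PBS 24 h on first-version A. At 72 h it had 282 and 352 in ragweed, against 162 and 247 in PBS. Again 1 value of 8 was above the floor. Version 2 A gave Ccr7 169 and 411 in ragweed 72 h, against 287 and 283 in PBS 72 h and 218 and 120 in PBS 24 h, with a 72 h difference of 0.13 ± 0.26 (limma adjusted p = 0.824). For both receptors a difference between ragweed and PBS was not detectable at these signals.

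**Figure D2:**
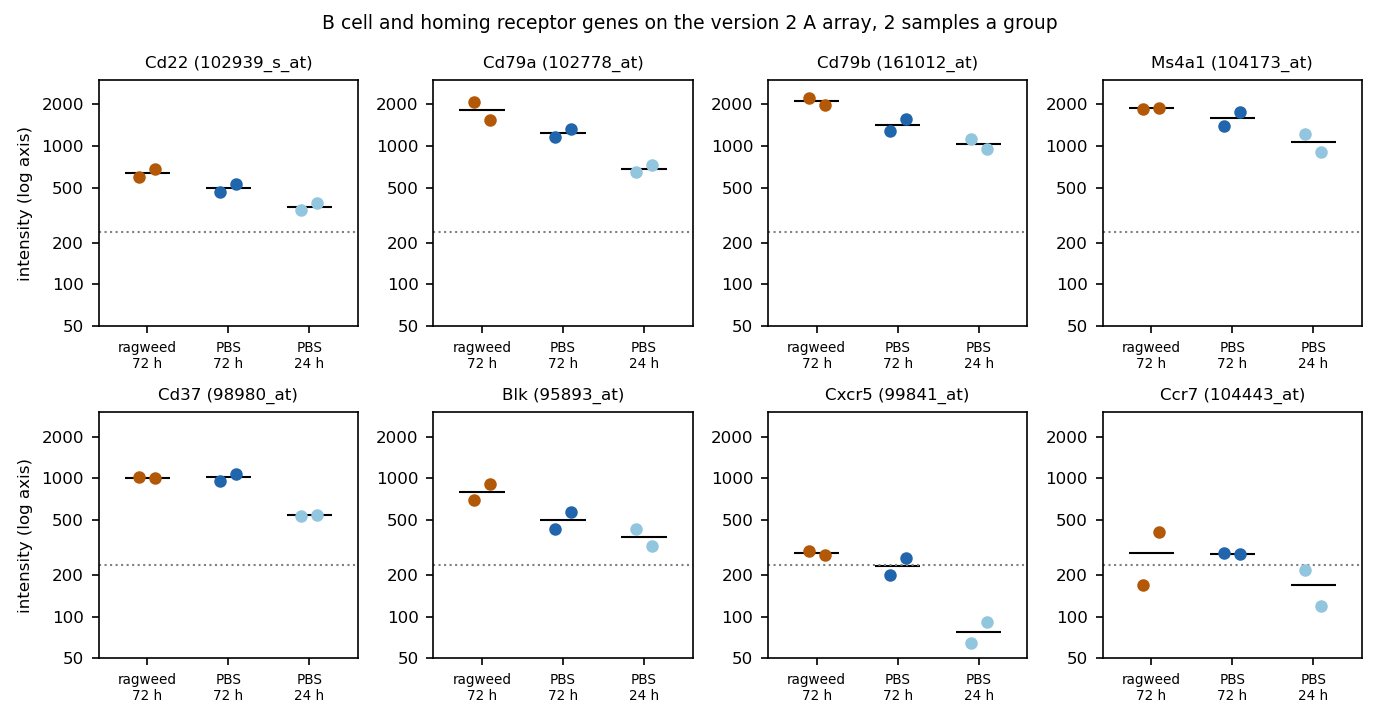
Intensity (log axis) of 8 genes on the version 2 A array, by group; points are the 2 samples of a group, black bars their mean, and the dotted line the floor of 238. Cd22, Cd79a, Cd79b, Ms4a1, Blk and Cxcr5 have both ragweed 72 h samples above all PBS samples. Ccr7 has overlapping 72 h groups, and Cd37 has the 72 h groups level, at 1019 and 999 in ragweed against 957 and 1077 in PBS.

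Counted together, 4 of the 8 tested member probe sets on the main tables had both ragweed samples above both PBS samples at 72 h, and 1 had both below. Over all probe sets tested 18% were apart in the higher and 17.8% in the lower direction. An unadjusted p under 0.05 was found for 4 of 8 members at 72 h (9.63% over all). At 24 h 1 member probe set was apart upward and 1 downward, with 16.3% and 17.8% over all. With limma, 0 of 8 members were called at 24 h, where 0.23% of all probe sets were called, and 2 of 8 had an unadjusted p under 0.05 (8.67% over all).

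On version 2 A, 10 of 11 member entries were tested, covering every gene except Cr2. In 7 of the 10 both ragweed 72 h samples lay above both PBS 72 h samples, with 22.5% over all 8044 probe sets of that array, and in 0 both lay below (24.5% over all). With limma 0 of the 10 were called, where 2.09% of all were called, and 3 of 10 had an unadjusted p under 0.05 (18.5% over all). Cxcr5, among the 7, was tested there only because both its ragweed 72 h values were above the floor. Member probe sets share genes and samples, and the members were chosen with earlier results of these data known, so these counts are not independent.

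**Figure D3:**
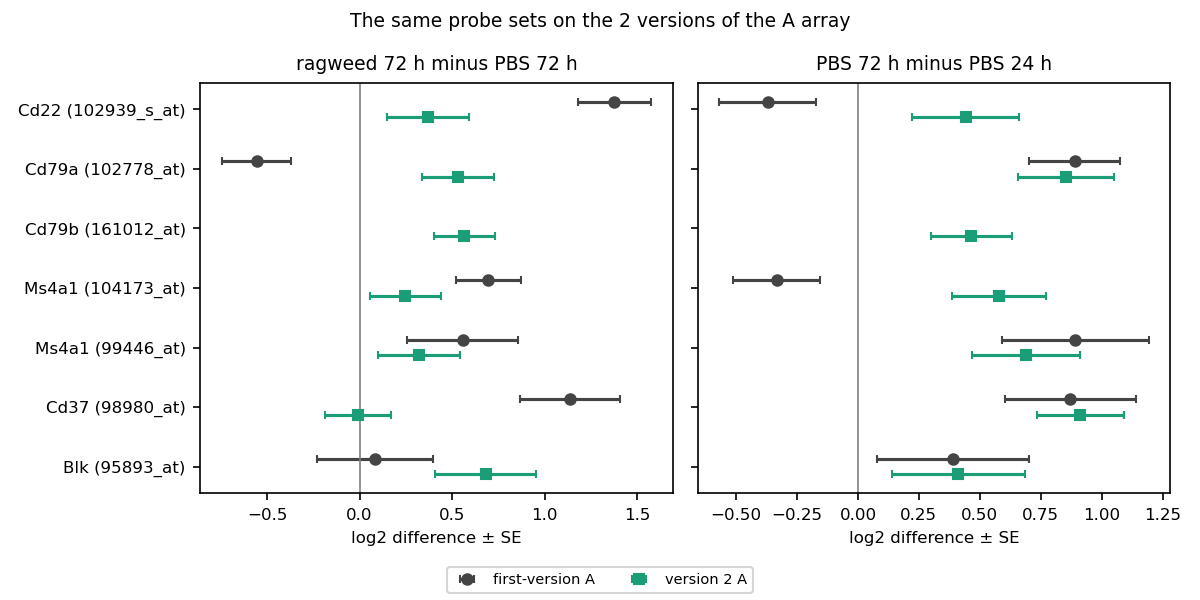
Log2 differences with standard errors for ragweed 72 h minus PBS 72 h (left) and PBS 72 h minus PBS 24 h (right), on first-version A (circles) and version 2 A (squares). Cd79a at 72 h is -0.56 on the first version and 0.53 on version 2, and Cd37 is 1.14 and -0.01, while both genes have like values in the right panel, where Cd22 (-0.37 and 0.44) and Ms4a1 104173_at (-0.33 and 0.58) differ in sign.

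The plot of both array versions shows where they part. At 72 h Cd79a differed in sign between the arrays, and the values of Cd37 and Cd22 were larger on first-version A. PBS 72 h minus PBS 24 h also differed in sign: it was -0.37 on first-version A and 0.44 on version 2 A for Cd22, and -0.33 and 0.58 for Ms4a1 (104173_at). Across the 6283 probe sets tested on both arrays, the 72 h differences had a Pearson r of 0.394 and a Spearman rho of 0.205 across genes, which are not independent replicates. For PBS 72 h minus PBS 24 h the values were 0.417 and 0.306.

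Most members were also higher in PBS 72 h than in PBS 24 h, though none passed the test. Of 8 member probe sets on the main tables, 5 had both PBS 72 h samples above both PBS 24 h samples and 2 had both below, with 17.5% and 18.2% over all. Version 2 A had 8 of 10 above and 0 below, with 23.8% and 20.6% over all. With limma 0 were called on either (0.281% and 0.796% of all called), and 3 of 8 and 5 of 10 had an unadjusted p under 0.05 (8.34% and 13.4% over all). Ccr7, among the 8 above on version 2 A, was tested there only because both its PBS 72 h values were above the floor.

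Markers of heart and skeletal muscle stood apart in the PBS 72 h lungs. On the main tables the summed intensity of 10 of 10 heart and skeletal muscle markers was 29749 to 31664 in PBS 72 h, against 14022 to 14526 in PBS 24 h, and was 17713 to 18386 in ragweed 72 h and 17488 to 19737 in ragweed 24 h. Dntt (103961_s_at), terminal transferase of lymphocyte precursors, had 351 and 397 in PBS 72 h, against 57 and 83 in PBS 24 h, and was under the floor in all ragweed samples. Dntt passed the filter on the main tables only through the PBS 72 h arrays, so its test could show it only as high in them. It was the only 1 of 7 thymocyte markers tested there: Rag1, Rag2, Ptcra and Ccr9 were under the floor on at least 7 of 8 arrays, and Cd8b1 and Themis were not analysed on these tables.

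The summed intensity of 3 of 7 thymocyte markers on version 2 A was 2143 to 2164 in ragweed 72 h, 2284 to 2729 in PBS 72 h and 1032 to 1534 in PBS 24 h. Among them Rag1 had 1668 and 1689 in ragweed 72 h, against 1350 and 590 in PBS 72 h, and Dntt had 146 and 205 in ragweed 72 h, against 679 and 1126 in PBS 72 h. The sum of 12 of 14 T cell markers was 5862 to 5944 in ragweed 72 h, 5887 to 8309 in PBS 72 h and 4313 to 4573 in PBS 24 h. The actin probe sets of version 2 A had a 3′ over 5′ intensity ratio in PBS 72 h of 0.189 and 0.198, against 0.535 and 0.437 in PBS 24 h and 0.801 and 0.578 in ragweed 72 h. On first-version A the same ratio was 0.798 to 0.968 in all 8 samples. The Gapdh probe sets of version 2 A had a ratio of 0.824 and 0.751 in PBS 72 h. It was 0.988 and 0.857 in PBS 24 h and 0.869 and 0.851 in ragweed 72 h. The part of these markers and of these ratios in the members' values at 72 h was not tested.

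With the earlier PBS group in place of the later, ragweed 72 h stood further from PBS on version 2 A. There 6 of 10 member probe sets were called higher in ragweed 72 h than in PBS 24 h, where 5.89% of all probe sets were called higher and 10.7% in all. Cd79a had 1.39 ± 0.20 (limma adjusted p = 0.00928) and Cd79b 1.03 ± 0.17 (adjusted p = 0.0134). Blk (95893_at) had 1.09 ± 0.27 (adjusted p = 0.0489) and Cd37 0.90 ± 0.18 (adjusted p = 0.0254). The Ms4a1 probe sets had 0.83 and 1.01 (adjusted p = 0.0413 and 0.0342), and Cd22 had 0.81 ± 0.22 and missed the threshold (adjusted p = 0.0602). On the main tables the same comparison called 1 of 8 members, Cd37, where 0.935% of all probe sets were called. Cd22 had 1.01 ± 0.20 on first-version A and was not called (limma adjusted p = 0.0709). First-version A gave Cd79a 0.33 ± 0.19 (adjusted p = 0.581) and Blk (95893_at) 0.47 ± 0.31 (adjusted p = 0.64), and the Ms4a1 probe sets 0.36 and 1.45 (adjusted p = 0.498 and 0.0856). This comparison joins treatment and time, which cannot be told apart in it.

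Within ragweed lungs, 6 of 8 member probe sets tested on the main tables had both 72 h samples above both 24 h samples. These were all 6 tested on first-version A. On version 2 B, Cr2 (114856_at) and Ms4a1 (105471_at) had overlapping groups, at -0.24 ± 0.21 and 0.24 ± 0.34 (limma adjusted p = 0.721 and 0.841). Over all 25250 probe sets tested, 17.7% were apart in the higher direction. The log2 differences of the first-version A probe sets besides Cd22 ran from 0.39 ± 0.18 for Ms4a1 (104173_at) to 0.96 ± 0.30 for Ms4a1 (99446_at). Cd79a had 0.44 ± 0.19, Blk 0.59 ± 0.31 and Cd37 0.64 ± 0.27. None of these 5 passed the test (limma adjusted p = 0.301 to 0.578).

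The other genes of B cell receptor signalling were taken as a list of 20, of which 17 were tested on the main tables. At 72 h 15 of the 17 had a positive log2 difference, with a median of 0.35, against a median of 0.00 over all 12840 genes tested. Of the 17, 0 were called by limma and 5 had an unadjusted p under 0.05, and over all genes 48 were called higher and 35 lower. Over all probe sets of the main tables, 9.63% had an unadjusted p under 0.05 at 72 h and 8.67% at 24 h. These shares also stand beside the lists below. Fcgr2b, an inhibitory Fc receptor of B cells and of macrophages, had the largest difference, at least 1.36 ± 0.24 (adjusted p = 0.0707). Blnk, the adaptor that links Syk to its targets, had 0.80 ± 0.28 (adjusted p = 0.397), and Inpp5d, a lipid phosphatase that limits the signal, at least 0.99 ± 0.31 (adjusted p = 0.315). Grb2, an adaptor of many receptors, went the other way at -1.14 ± 0.47 (adjusted p = 0.5). At 24 h the list's median was 0.02, 9 of 17 were positive, 0 were called and 2 had an unadjusted p under 0.05.

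Fcgr2b had 665 and 842 in ragweed 72 h, against 192 and 288 in PBS 72 h on first-version A. Version 2 A called it at 72 h (1.44 ± 0.20, limma adjusted p = 0.0212), the only 1 of 14 tested list genes called there, with a list median of 0.19 against -0.03 over 6073 genes. Of those 6073 genes 1.76% were called. Blnk had 1.13 ± 0.24 on version 2 A (adjusted p = 0.069). Macrophage and monocyte markers, whose cells also carry Fcgr2b, had a median of 0.46 at 72 h on the main tables, with 1 of 8 called, the pore-forming protein Mpeg1 (1.38 ± 0.23, adjusted p = 0.0498), and 6 of 8 with an unadjusted p under 0.05. Their summed intensity on the main tables was 39782 to 48203 in ragweed 72 h, against 45536 to 49454 in PBS 72 h. On version 2 A it was 38134 to 40581 in ragweed 72 h, against 26173 to 28755 in PBS 72 h, without overlap, and 9 of 9 genes had a positive difference. Their part in the Fcgr2b value was not tested.

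Ligands and partners of follicle homing gave no call among 10 of 14 genes tested on the main tables, with medians of -0.08 at 24 h and 0.13 at 72 h. At 24 h 1 and at 72 h 2 of them had an unadjusted p under 0.05. The sphingosine phosphate receptor S1pr1, which lets lymphocytes leave tissues, had at least 0.84 ± 0.31 at 72 h (limma adjusted p = 0.412). Glycam1, a ligand of L-selectin on high endothelial venules, had -0.58 ± 0.25 (adjusted p = 0.51), and the adhesion molecules Vcam1 and Icam1 had 0.40 ± 0.29 and -0.28 ± 0.15 (adjusted p = 0.733 and 0.634). Cxcl13, the Cxcr5 ligand, named for that role after its values were seen, had 342 and 262 in ragweed 72 h, against 363 and 345 in PBS 72 h, near the floor of 292. Ccl19 and Ccl21a were not analysed here.

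Survival and costimulation genes of B cells had medians of 0.23 at 24 h and 0.31 at 72 h over 9 of 14 genes, with 0 called at each time and 2 with an unadjusted p under 0.05 at each. Cd24a, a surface glycoprotein of B cells and epithelia, had the largest 72 h difference, 0.71 ± 0.12 (limma adjusted p = 0.0612), and Tnfrsf17, the plasma cell receptor BCMA, had at least 0.60 ± 0.20 (adjusted p = 0.358). Cd83 and Tnfrsf13b had -0.53 ± 0.36 and -0.46 ± 0.38 (adjusted p = 0.713 and 0.762). B lineage transcription factors, 12 of 14 genes, had medians of 0.18 and 0.13 with 0 called at either time, and 1 and 3 had an unadjusted p under 0.05. Pou2af1, the octamer co-activator, had 600 and 644 in ragweed 72 h, against 362 and 369 in PBS 72 h (0.77 ± 0.17, adjusted p = 0.145). Spi1 and Spib, factors of the PU.1 family, had 0.92 ± 0.33 and 0.70 ± 0.49 (adjusted p = 0.405 and 0.721), and Bach2, which holds back plasma cell formation, had -1.11 ± 0.28 (adjusted p = 0.195).

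Of 12 plasma cell genes 9 were tested on the main tables, and 2 were called higher at 24 h and 3 at 72 h, with 0 lower at either time, where 0.366% and 0.646% of all genes were called. Version 2 A called 1 of 8 at 72 h, Ighm, where 1.76% of all genes were called. Between the PBS groups, 2 of the 9 on the main tables, Ighm and Jchain, were called higher at 72 h than at 24 h, where 0.405% of all genes were called. Ighm (93583_s_at), the immunoglobulin mu heavy chain, rose by 1.68 ± 0.12 at 24 h (limma adjusted p = 6.97e-04) and 1.75 ± 0.12 at 72 h (adjusted p = 0.00105). Another Ighm probe set, 100362_f_at, overlapped at 24 h, with 890 and 636 in ragweed against 645 and 477 in PBS. At 72 h that probe set had 2183 and 1802 in ragweed, against 799 and 681 in PBS. Jchain, the chain that joins IgM and IgA, rose by at least 2.07 ± 0.17 at 24 h (adjusted p = 0.00148) and by 1.78 ± 0.17 at 72 h (adjusted p = 0.00399). Mzb1, a folding factor of antibody-secreting cells, rose at 72 h by 2.96 ± 0.47 (adjusted p = 0.0185). The list median was 0.42 at 24 h and 0.27 at 72 h, with Sdc1 at -0.58 ± 0.39 and Igha at 1.24 ± 0.31 at 72 h, neither called (adjusted p = 0.713 and 0.194).

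Germinal centre genes had medians of 0.00 at 24 h and 0.48 at 72 h over 5 of 8 genes, with 0 called at either time. An unadjusted p under 0.05 was found for 0 of them at 24 h and 2 at 72 h. Mki67, a proliferation antigen of all dividing cells, had 439 and 508 in ragweed 72 h, against 249 and 298 in PBS 72 h (0.68 ± 0.14, limma adjusted p = 0.115). T cell markers had medians of -0.02 at 24 h and 0.00 at 72 h over 10 of 14 genes. Dendritic cell markers had 0.08 and -0.36 over 7 of 10, and follicular dendritic cell markers -0.12 and -0.17 over 5 of 7. On the main tables these lists had 0 called by limma at either time. At an unadjusted p under 0.05 the main-table counts at 24 h and 72 h were 1 and 1 for T cell, 0 and 1 for dendritic cell and 2 and 2 for follicular dendritic cell markers. Version 2 A called 1 of 7 dendritic cell markers higher at 72 h, Itgax, and 2 of 5 follicular dendritic cell markers, Fcgr2b higher and Clu lower. Of 4 germinal centre genes tested there 0 were called at 72 h, with a median of 0.15. Of all genes 1.76% were called there.

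**Figure D4:**
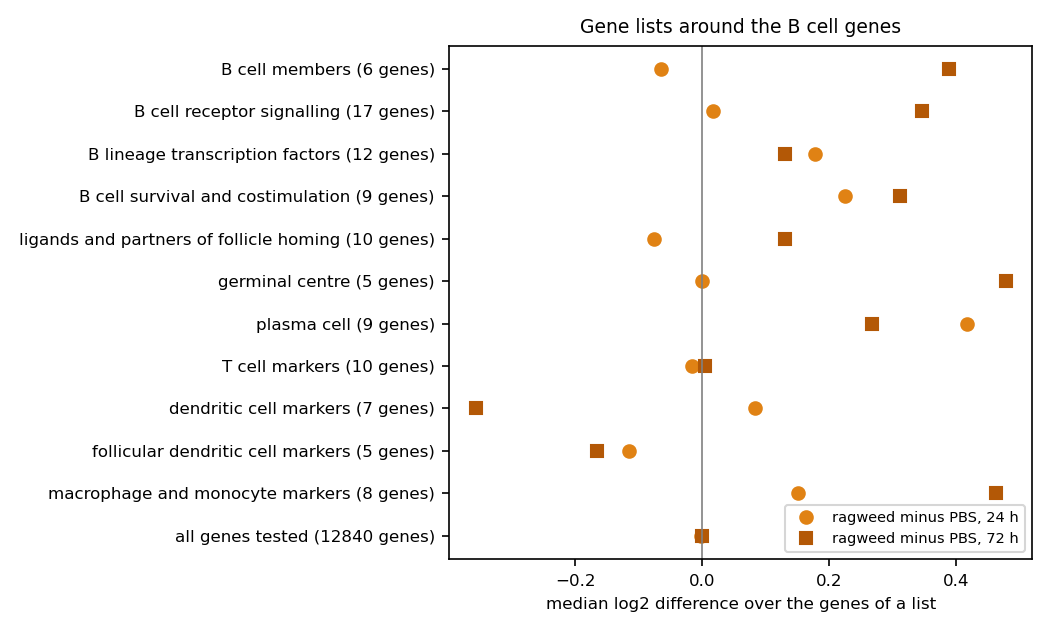
Median log2 difference of ragweed minus PBS over the tested genes of each list at 24 h (circles) and 72 h (squares), 1 probe set per gene. The 6 B cell members have medians of -0.07 at 24 h and 0.39 at 72 h, and all 12840 genes have medians of 0.00.

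Over the 6 tested members, 1 probe set each, the median log2 difference was -0.07 at 24 h and 0.39 at 72 h on the main tables, as the plot of list medians shows. The effect at 72 h minus that at 24 h had a median of -0.02 over the same genes, with 3 of 6 positive, 0 called by limma and 2 with an unadjusted p under 0.05. Their mean log2 intensity was 9.44 and 9.27 in ragweed 24 h, against 9.31 and 9.09 in PBS 24 h. At 72 h it was 9.91 and 9.89 in ragweed, against 9.47 and 9.47 in PBS. The ragweed 72 h samples were thus the highest of the 8, and the 24 h groups overlapped.

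The profile of that mean over the 8 samples was set against 10016 other probe sets that were tested, had a single gene symbol and varied by at least 1 log2 unit. The highest Pearson correlation was 0.992, for Cd52, a small surface glycoprotein of lymphocytes. It had 4442 and 4266 in ragweed 72 h, against 2513 and 2229 in PBS 72 h, and 2033 and 1731 in ragweed 24 h, against 1665 and 1150 in PBS 24 h. Igha, the immunoglobulin alpha heavy chain, followed with 0.990, Ighm (100362_f_at) with 0.974 and H2-Eb1, a class II histocompatibility chain, with 0.967. Then came Dock6, a guanine exchange factor, with 0.965, Igkv1-133, a kappa variable gene, with 0.963, Pou2af1 with 0.958 and Itgb2, the common chain of leukocyte integrins, with 0.957. These are the highest of many correlations over only 8 points from 4 groups, and all but that of Dock6 share the first-version A arrays with most members.

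**Figure D5:**
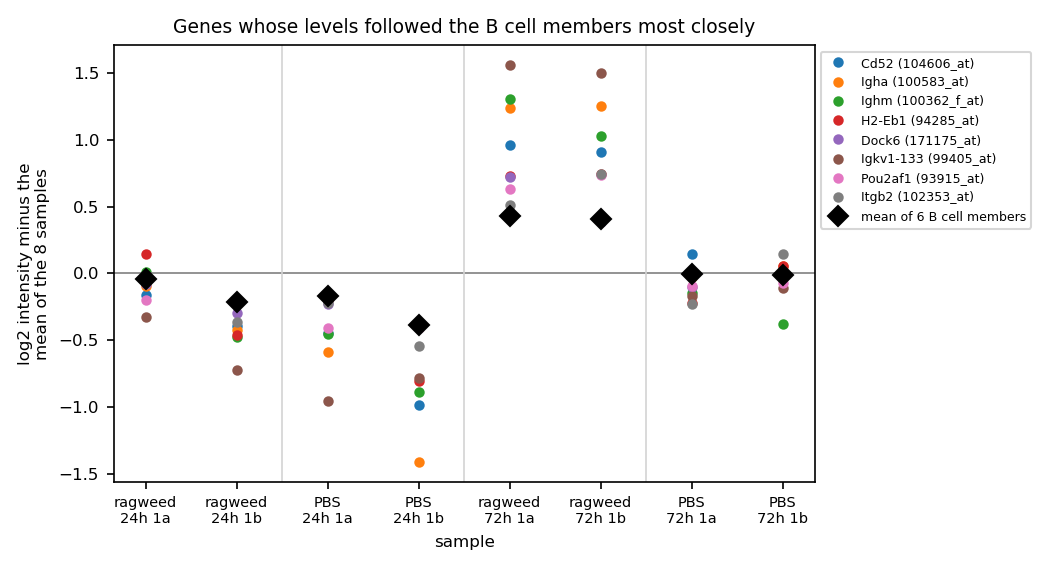
Log2 intensity of the 8 probe sets most like the B cell members, and of the members' mean (diamonds), each centred on its mean over the 8 samples. All are highest in both ragweed 72 h samples, and the points of Igha spread furthest below 0 in PBS 24 h 1b.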

How the data were processed

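The deposited values are linear intensity per probe set and array; the software that made them was not given in the sources used here. Of 47 arrays 46 were distinct: an unlettered ragweed 24 h array equalled the 1a array divided by 2.63 and was left out. First-version tables were brought to a 2% trimmed mean of 800, then quantile normalized, A after restriction to 9977 IDs shared with version 2 A; version 2 tables kept the deposited scale. Values were floored at each table's 40th percentile, and probe sets above it on at least 2 arrays were tested: 25250 on the main tables, 8044 on version 2 A. limma 3.58.1 in R 4.3.3 fitted group means with a mean-variance trend, over 8 samples with 4 residual degrees of freedom on the main tables and 6 arrays of 3 groups with 3 on version 2 A. P-values were adjusted by Benjamini-Hochberg over the main tables together, and over version 2 A on its own. "At least" marks a difference from a group wholly at the floor, and flooring removes the spread of such a group. Lists used 1 probe set per gene, first-version A before version 2 B and C, then the brightest; list genes were named if called or among the 4 largest differences at 72 h, likeness genes as the 8 highest correlations. Array annotation gave the gene names, with symbols brought up to date through gene IDs. The members and lists were chosen with earlier results of these data known. The script was tested on simulated data. Alternatives covered normalization, floor, filter, array version, variance model, adjustment, replicate block, left-out samples and PBS reference.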

Additional observations from a re-analysis of the deposited data

Results flagged for a closer look

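Cd22 (102939_s_at) had ragweed samples on opposite sides of PBS at the 2 times. At 72 h the ragweed samples, at 783 and 826, were both above the PBS samples, at 329 and 90. At 24 h the ragweed samples, at 140 and 255, were both below the PBS samples, at 435 and 368. The difference of the ragweed effects, 72 h minus 24 h, was 1.83 ± 0.28 log2 units as fitted, and it did not pass the test over all probe sets (limma adjusted p = 0.14). Over 19 alternatives it ran from 1.71 to 3.20, with 1 call, when no filter on dim probe sets was used (adjusted p = 0.0437).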

How the results depend on the processing

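Over 22 alternatives the 72 h difference of Cd22 kept its sign, from 0.37 to 2.11, and it was called in 8. The number of member probe sets called at 72 h, 1 as reported, was 0 with the floor at the 20th percentile, with no floor and an offset of 50, with all first-version A probe sets, and with version 2 A in place of first-version A, and 2 with PBS of both times as the reference. For ragweed 72 h against 24 h, also 1 as reported, it was 0 with the lower floor, with no floor and with all first-version A probe sets. For the mean of both times, 1 as reported, it was 0 with no filter on dim probe sets and with all first-version A probe sets. For the difference between the times, 0 as reported, it was 1 with no filter. Leaving out each sample in turn gave 0 member calls in all 3 comparisons with a call. Over all probe sets the 24 h count, 58, was 90 with no floor, 121 with no filter, 101 with a filter of at least 4 arrays and 91 with adjustment within each table, and 23 to 42 with a sample left out. The 72 h count, 133, was 80 without the mean-variance trend, 72 with version 2 A, 236 with PBS 24 h and 238 with both PBS groups as the reference, and 25 to 87 with a sample left out. Deviations of the codes 1a and 1b from their group means correlated between -0.08 and 0.04 across groups, so the codes were not taken to pair samples. With the replicate block 0 member probe sets were called at 72 h and 0 for ragweed 72 h against 24 h, and 1 for the mean of both times. Signals near the floor limit what can be said of Cr2, Cxcr5, Ccr7 and 1 Blk probe set.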

Other observations

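Ragweed 72 h against PBS 24 h joins treatment and time. Of 14 genes of B cell receptor signalling tested on version 2 A, 6 were called higher in ragweed 72 h, 0 were called lower and 8 did not pass, with 291 of 6073 genes called higher and 315 lower over the array. On the main tables limma called 0 of 17 genes of the list in the same comparison, where 1.18% of all genes were called. Cd72, a co-receptor of B cells, had 1.25 ± 0.20 (limma adjusted p = 0.0127), the kinase Syk 0.98 ± 0.14 (adjusted p = 0.0103) and the adaptor Blnk 1.20 ± 0.24 (adjusted p = 0.0254). Pik3cd, a lipid kinase of leukocytes, had 1.34 ± 0.24 (adjusted p = 0.0196). Fcgr2b and the kinase Btk had at least 1.73 ± 0.20 and at least 1.16 ± 0.29 (adjusted p = 0.00395 and 0.0478). Against PBS 72 h, Fcgr2b was the only 1 of these 6 called.

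Of 10 B lineage transcription factors 4 were called higher and 0 lower between ragweed 72 h and PBS 24 h on version 2 A. Of all genes 9.98% were called in that comparison. Against PBS 72 h, 0 of these 10 were called there, where 1.76% of all genes were called, and their median was 0.12. PBS 72 h minus PBS 24 h had a median of 0.44 over the same 10, with 0 called (0.922% of all genes called). Against PBS 24 h, Pax5, the identity factor of B cells, had 1.43 ± 0.35 (limma adjusted p = 0.0469) and Spib 1.26 ± 0.27 (adjusted p = 0.0316). Pou2af1 had 1.67 ± 0.23 (adjusted p = 0.00895) and Pou2f2, an octamer-binding factor, 0.80 ± 0.16 (adjusted p = 0.0247). On the main tables the same comparison called Pou2af1, at least 1.09 ± 0.17 (adjusted p = 0.028), and Pax5 had -0.04 ± 0.46 (adjusted p = 1). Among markers of other cells on version 2 A, T cell markers had 1 of 12 called higher, Cd2, and macrophage and monocyte markers 3 of 9, Cd68, Csf1r and Mpeg1, with a median of 0.66. The summed macrophage and monocyte intensity there was 38134 to 40581 in ragweed 72 h, against 23948 to 28044 in PBS 24 h. Myeloid cells also express Fcgr2b, Syk, Btk and Pik3cd, and the part of these cells in the values was not tested.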
